A study of Mus musculus with 8 samples.

Results

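The proteasome genes of the Ang II-infused mouse aorta are described here in 2 groups of chimeras. They are the 47 genes, of 23420 in the table, whose symbol starts with Psma, Psmb, Psmc, Psmd, Psme, Psmf or Psmg followed by a number, without Psmb8 and Psmb9. One of them, Psmc3ip, was taken in by its symbol only, as it encodes a cofactor of recombination and is no part of the proteasome. Lethally irradiated ApoE-/- recipients, 6 weeks old, were given fetal liver cells of Ntn1+/+ ApoE-/- donors (WT→ApoE-/-, replicates A to D) or of Ntn1-/- ApoE-/- donors (Ntn1-/-→ApoE-/-, replicates A to D). All 8 mice thus lacked ApoE in recipient and donor cells alike, recovered for 6 weeks, and received Ang II at 1 µg/kg/min for 28 days. RNA of each whole aorta was sequenced as 1 library, with 4 mice per group and no pooling. Only blood-derived cells of the Ntn1-/-→ApoE-/- mice lacked netrin-1, while the cells of the vessel wall kept an intact Ntn1 gene. The paper reported fewer aneurysms and fewer macrophages in the aortas of Ntn1-/-→ApoE-/- than of WT→ApoE-/- mice. The sample labels do not say which of the 8 aortas had an aneurysm. Donor genotype and disease therefore cannot be told apart. Whole aorta mixes many cell types, so that fewer cells of a type and less RNA per cell cannot be told apart. A normalized read is a read count divided by the size factor of its library, and fold changes are differences of log2(normalized reads + 1), Ntn1-/- minus WT, with the standard error (SE) from limma.

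The proteasome degrades proteins that carry a chain of ubiquitin. Its core particle is a barrel of α rings, which form the gate, and β rings, of which the subunits encoded by Psmb5, Psmb6 and Psmb7 cut the protein chain. A regulatory particle caps the barrel: its base holds a ring of ATPases (Psmc genes) that unfold the substrate, and its lid (most Psmd genes) removes the ubiquitin. Interferon gamma induces Psmb8, Psmb9 and Psmb10, which replace the constitutive catalytic subunits in the immunoproteasome of immune and inflamed cells, and the activator subunits Psme1 and Psme2. In vascular smooth muscle and macrophages the proteasome is known for limiting damaged proteins and for activating NF-κB by degrading its inhibitor.

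Depth and purity bear on every value below. The libraries held 19879329 to 25083874 reads in genes in WT→ApoE-/- mice and 22485117 to 28202931 in Ntn1-/-→ApoE-/- mice. Ntn1, deleted in the donor cells alone, stood at 7923 ± 2419 normalized reads (SD, n = 4) in Ntn1-/-→ApoE-/- aortas and 7564 ± 1698 (SD, n = 4) in WT→ApoE-/- aortas, which overlapped (exact permutation test, 2-sided, p = 0.886). This level is no complete check of the labels, since recipient cells carry the gene. All 6 smooth muscle markers were present, at a summed 313298 to 814741 normalized reads in Ntn1-/- and 465503 to 775734 in WT libraries. Markers of other tissues were present at uneven levels. Liver genes summed to 135 to 1468 in Ntn1-/- and 201 to 7338 in WT libraries. All 6 had lower means in Ntn1-/- libraries, at 10.6% to 15.0% of WT, 4 of them at an unadjusted p under 0.05 in limma, and DESeq2 called 4 of 6 lower at an adjusted p under 0.05. Neuron and Schwann cell genes summed to 1745 to 8511 against 1357 to 2507, highest in Ntn1-/- replicates B and C. All 6 had higher means in Ntn1-/- libraries, 4 of them at an unadjusted p under 0.05 in limma, and DESeq2 called 4 of 6 higher. Skeletal muscle genes summed to 212 to 6839 against 266 to 2476, again highest in Ntn1-/- replicates B and C, with Myh4 at 0 in Ntn1-/- replicate A. Thymocyte genes summed to 181 to 541 against 186 to 339, with Rag1 at 0 in 3 WT libraries, and 2 of the 4 tested were higher at an unadjusted p under 0.05. Of all genes tested, 7.25% were lower and 8.37% higher at that p in limma. DESeq2 called 1.48% of them lower and 2.16% higher at an adjusted p under 0.05. The part of these tissues in the proteasome values was not tested.

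As normalized by the authors, proteasome transcripts had slightly lower median estimates in Ntn1-/-→ApoE-/- aortas in every class of subunit. No single gene passed the adjusted test of limma. Of the 47 genes, 45 had a lower estimate in Ntn1-/-→ApoE-/- aortas, where 52.4% of the 14931 genes tested did. Their median log2 fold change was -0.18, beside -0.01 over all genes tested. The 47 genes were read in the same 8 libraries and many shared the same high and low ones. Their counts are therefore not counts of independent observations. With the length and GC offset described further on, 37 of the 47 were lower, beside 55.2% of all genes. Class medians then ran from -0.20 for the chaperones of the base to -0.01 for the β ring. All 47 passed the filter for low values, a mean of at least 10 normalized reads. No proteasome gene passed the adjusted threshold of limma (Benjamini-Hochberg over all genes tested, adjusted p under 0.05), and neither did any of the 14931 genes (0.0%), the lowest adjusted value being 0.248. limma gave 2333 genes in all an unadjusted p under 0.05. Among them 16 proteasome genes had a lower and 0 a higher estimate, where 7.25% of all genes tested were lower and 8.37% higher at that p. The 4 values of one group lay wholly below the 4 of the other for 11 proteasome genes, all lower in Ntn1-/-→ApoE-/- aortas, against 5.34% of all genes in that direction and 5.13% in the other. From edgeR on the recovered reads came 0 calls among all genes (0.0%), while 2461 had an unadjusted p under 0.05. DESeq2 on the same reads called 544 genes (3.64%), of which 221 were lower (1.48%), and 1 of them was a proteasome gene, Psmd13.

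**Figure D1:**
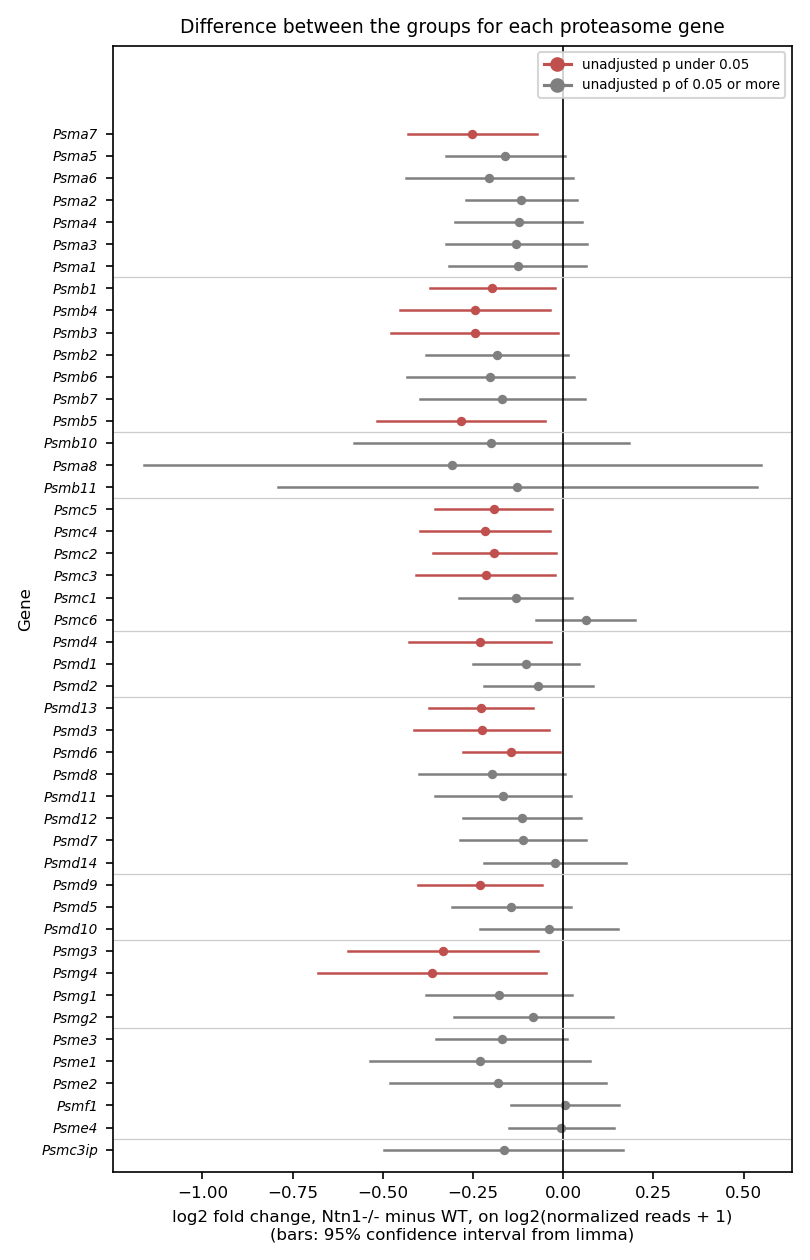
Each point is the log2 fold change of 1 proteasome gene (Ntn1-/- minus WT, x axis, on log2(normalized reads + 1)), with its 95% confidence interval from limma as a bar, and the genes are grouped by role from the α ring at the top to Psmc3ip at the bottom. The 16 genes in red have an unadjusted p under 0.05, all to the left of 0, and the 2 estimates above 0 are Psmc6 and Psmf1.

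Added up, the 47 genes took 0.419% to 0.473% of the reads in Ntn1-/- libraries and 0.448% to 0.495% in WT libraries. In normalized reads their sums were 98196, 95990, 105880 and 96944 in Ntn1-/- replicates A to D, and 106003, 108401, 110450 and 121521 in WT replicates A to D. The sums did not overlap, while the shares of reads did. The highest Ntn1-/- sum, of replicate C, and the lowest WT sum, of replicate A, lay side by side. WT replicate D held the highest value of all 8 libraries for 30 of the 47 genes, and for 24 of the 31 genes of the constitutive core and the regulatory particle. The lowest value was in Ntn1-/- replicate B for 20 genes and in Ntn1-/- replicate D for 14. Within its own group, Ntn1-/- replicate C was the highest for 29 genes and WT replicate A the lowest for 28. WT replicate D also held the most brown fat transcripts (Ucp1, Cidea and Cox7a1), a summed 73524 normalized reads beside 25027 to 32373 in the other WT libraries and 18772 to 40060 in Ntn1-/- libraries. The part of brown fat in the proteasome values was not tested. Without WT replicate D, 45 estimates were still lower (52.2% of all genes), with a median of -0.14. There 11 genes were apart, beside 13.1% of all genes in either direction, against 10.5% with all 8 libraries. But 5 rather than 16 had an unadjusted p under 0.05, where 4.6% of all genes were lower at that p. Without Ntn1-/- replicates B and C, the libraries rich in muscle and neuron transcripts, 43 estimates were lower (49.2% of all genes), with a median of -0.19, and 15 had an unadjusted p under 0.05 (6.71% of all genes in that direction).

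**Figure D2:**
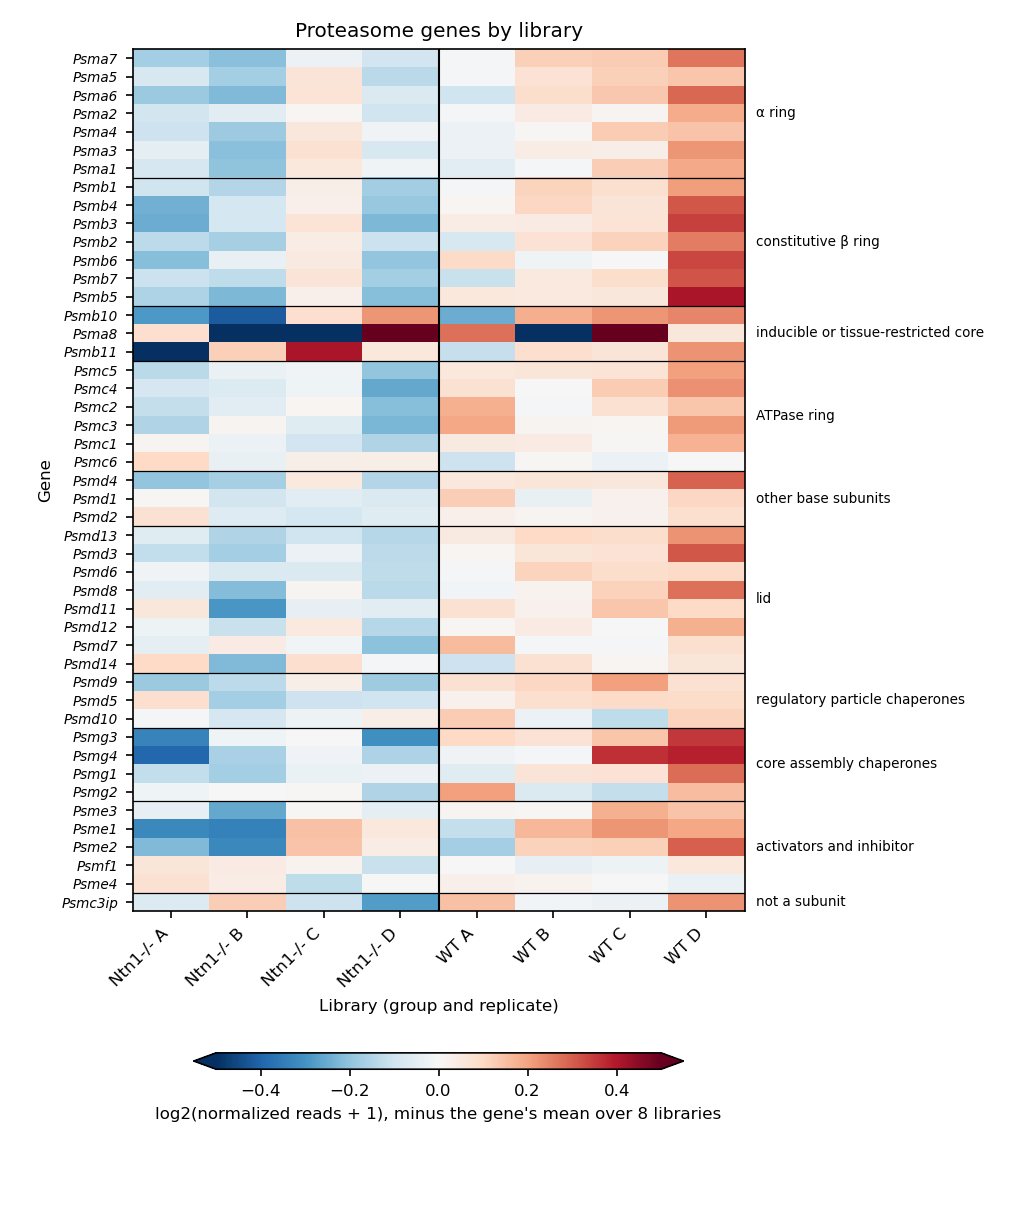
Each row is 1 of the 47 proteasome genes, grouped by role, and each column 1 library. Color gives log2(normalized reads + 1) minus the mean of the gene over the 8 libraries, from blue (lower) to red (higher), and values beyond 0.5 take the end colors. Blue prevails in the Ntn1-/- columns apart from replicate C, and the darkest red of the constitutive genes is in WT replicate D.

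In the constitutive core particle all 14 subunit genes had a lower estimate (52.4% of all genes). Of these, 5 had an unadjusted p under 0.05 (7.25% of all genes in that direction). For the α ring the 7 log2 fold changes ran from -0.25 to -0.12, with a median of -0.13. Psma7, whose product takes one place in that ring, read 2524, 2454, 2782 and 2654 normalized reads in Ntn1-/- replicates A to D and 2819, 3083, 3103 and 3414 in WT replicates A to D. Every WT library exceeded every Ntn1-/- library, although WT replicate A was only just above Ntn1-/- replicate C. Psma7 had a log2 fold change of -0.25 (SE 0.08, limma adjusted p = 0.249), a mean level of 83.9% of that in WT. The other α genes, Psma1, Psma2, Psma3, Psma4, Psma5 and Psma6, had overlapping groups and levels of 86.6% to 92.2% of WT.

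The β ring had log2 fold changes of -0.28 to -0.17, with a median of -0.20. Of its 7 genes, Psmb1, Psmb3, Psmb4 and Psmb5 had an unadjusted p under 0.05 (7.25% of all genes lower at that p). Psmb5, the subunit with chymotrypsin-like activity and the main target of bortezomib, read 1998, 1906, 2265 and 1920 normalized reads in Ntn1-/- replicates A to D and 2310, 2301, 2315 and 2956 in WT replicates A to D. The 3 lower WT libraries lay close together just above Ntn1-/- replicate C, and WT replicate D lay far above all. Its log2 fold change was -0.28 (SE 0.10, limma adjusted p = 0.263). Psmb6, which has caspase-like activity, read 3105, 3511, 3714 and 3142 in Ntn1-/- libraries and 3849, 3544, 3601 and 4537 in WT libraries. Its groups overlapped, as Ntn1-/- replicate C exceeded WT replicates B and C, with a log2 fold change of -0.20 (SE 0.10, limma adjusted p = 0.368). Psmb7, with trypsin-like activity, read 3121, 3078, 3520 and 2991 in Ntn1-/- libraries and 3112, 3477, 3571 and 4181 in WT libraries. These groups overlapped as well, at a log2 fold change of -0.17 (SE 0.10, limma adjusted p = 0.440). The catalytic genes thus had estimates close to those of the non-catalytic Psmb1, Psmb2, Psmb3 and Psmb4, which ran from -0.25 to -0.18. No test compared them.

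**Figure D3:**
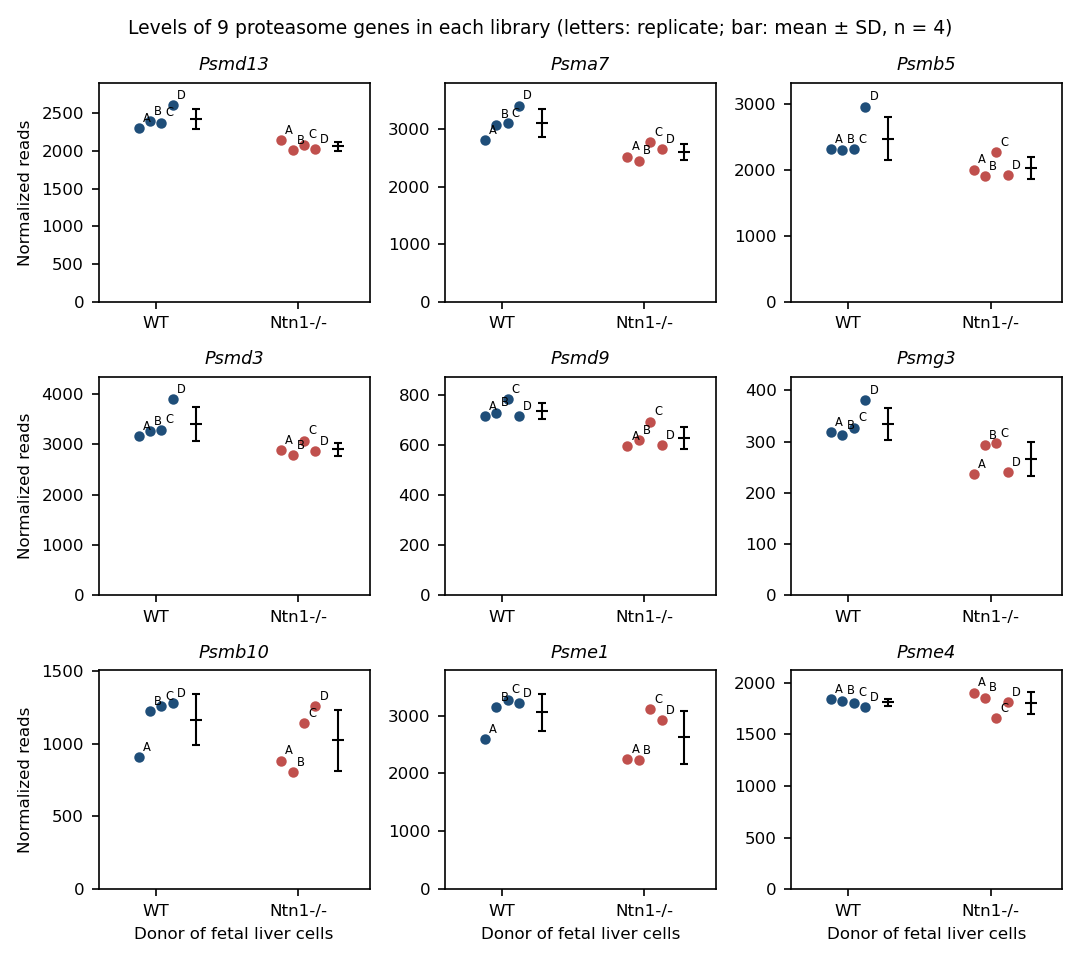
Normalized reads (y axis, from 0) of 9 proteasome genes in the 4 WT libraries (blue) and 4 Ntn1-/- libraries (red), each point labeled with its replicate, beside the mean ± SD (n = 4). The groups do not overlap for Psmd13, Psma7, Psmb5, Psmd3, Psmd9 and Psmg3, and they overlap for Psmb10, Psme1 and Psme4.

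The 3 core genes that are induced or restricted to certain tissues had overlapping groups. Psmb10, the inducible counterpart of Psmb7, read 883, 806, 1142 and 1257 normalized reads in Ntn1-/- replicates A to D and 906, 1223, 1256 and 1277 in WT replicates A to D. Both groups held low and high libraries, and the log2 fold change of Psmb10 was -0.20 (SE 0.17, limma adjusted p = 0.586). Psma8, of the testis, and Psmb11, of the thymic epithelium, were barely present, at 14.0 to 39.6 and 10.8 to 26.9 normalized reads per library. Per kilobase of exon, Psmb11 at 4.85 and Psma8 at 14.1 normalized reads were the lowest of the 47 genes, and Psmb1 at 3791, Psmd8 at 2850 and Psma6 at 2842 the highest.

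Whether the make-up of the core shifted towards the immunoproteasome was asked with 3 ratios taken within each library, which do not depend on its size factor but do depend on how transcript length is treated. Psmb8/Psmb5 was 0.585, 0.437, 0.786 and 1.12 in Ntn1-/- replicates A to D and 0.506, 0.867, 0.849 and 0.573 in WT replicates A to D. The highest and the lowest ratio were both in Ntn1-/- libraries. The means were 0.731 ± 0.294 (SD, n = 4) and 0.699 ± 0.186 (SD, n = 4), with p = 0.943 in an exact permutation test of the log2 ratios, 2-sided. Psmb9/Psmb6 was 0.199 ± 0.081 in Ntn1-/- and 0.191 ± 0.060 in WT libraries (SD, n = 4 each, exact permutation p = 0.971). Psmb10/Psmb7 was 0.322 ± 0.070 in Ntn1-/- and 0.325 ± 0.031 in WT libraries (SD, n = 4 each, exact permutation p = 0.857). Adjusted over the 3 ratios, each of these exact p-values was 0.971. With the length and GC offset described further on, added for the ratios after seeing the data, the difference of the log2 ratios (Ntn1-/- minus WT) went from 0.02 to -0.18 for Psmb8/Psmb5 (exact permutation p = 0.657), whose exons measure 2736 and 922 bases. For Psmb10/Psmb7 it went from -0.03 to 0.03 (exact permutation p = 0.914), and Psmb9 had no length to correct for. In all 3 ratios Ntn1-/- replicate D was the highest library and Ntn1-/- replicate B the lowest. The 6 macrophage markers summed to 39611, 20860, 49825 and 83746 normalized reads in Ntn1-/- replicates A to D and 35303, 76512, 58893 and 69410 in WT replicates A to D. Replicates B and D of the Ntn1-/- group were thus the lowest and the highest of all libraries in both measures. WT replicate D did not follow this order, with the third highest macrophage sum and the third lowest ratio of Psmb8/Psmb5 and of Psmb9/Psmb6. The part of macrophage number in the ratios was not tested.

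**Figure D4:**
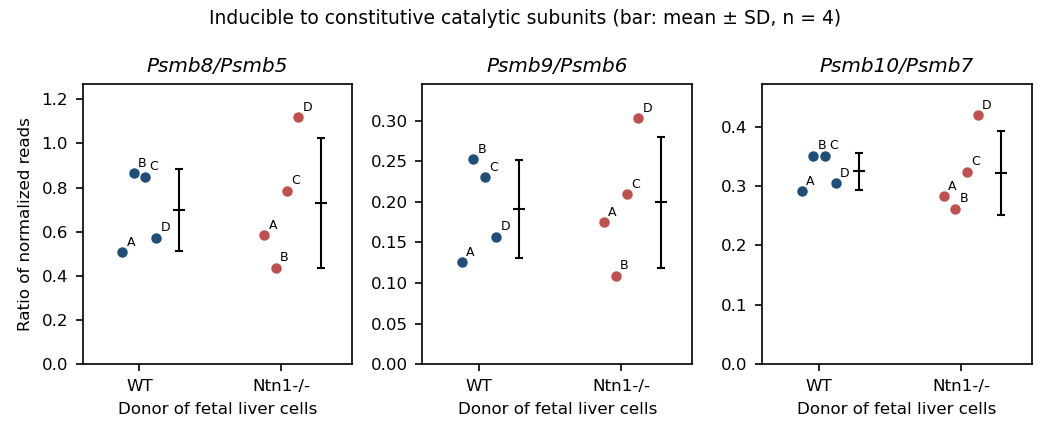
Ratio of the normalized reads of each inducible catalytic gene to its constitutive counterpart (y axis, from 0) in the 4 WT (blue) and 4 Ntn1-/- (red) libraries, labeled by replicate, beside the mean ± SD (n = 4). The groups overlap in all 3 panels, and Ntn1-/- replicates D and B mark the top and the bottom of each.

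Of the regulatory particle, 16 of 17 genes had a lower estimate (52.4% of all genes). Of these, 8 had an unadjusted p under 0.05 (7.25% of all genes in that direction). In the ATPase ring Psmc2, Psmc3, Psmc4 and Psmc5 made up 4 of these 8, at log2 fold changes of -0.22 to -0.19. Psmc4 read 2687, 2720, 2804 and 2385 normalized reads in Ntn1-/- replicates A to D and 3007, 2843, 3115 and 3337 in WT replicates A to D. Its groups did not overlap, and its log2 fold change was -0.22 (SE 0.08, limma adjusted p = 0.267). Psmc1 had a log2 fold change of -0.13 with overlapping groups. Psmc6 was the only ATPase gene with a higher estimate, and it read 2043, 1859, 1948 and 1947 in Ntn1-/- libraries and 1777, 1912, 1869 and 1908 in WT libraries. Its estimate of 0.06 had a 95% interval from -0.08 to 0.20 (limma adjusted p = 0.647). Of the other base subunits, Psmd4, a receptor for ubiquitin chains, had a log2 fold change of -0.23 and groups apart. The large scaffold subunits Psmd1 and Psmd2 had log2 fold changes of -0.10 and -0.07.

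In the lid, 3 of 8 genes had an unadjusted p under 0.05 (7.25% of all genes lower at that p). The median log2 fold change over the 8 was -0.15. Psmd13, on chromosome 7 of mm9 from 148067867 to 148084542, had the smallest p of all 47 genes. It read 2143, 2013, 2085 and 2022 normalized reads in Ntn1-/- replicates A to D and 2303, 2395, 2378 and 2609 in WT replicates A to D. The gap between the groups was wider than the SD of either. The level of Psmd13 in Ntn1-/-→ApoE-/- aortas was 85.3% of that in WT→ApoE-/- aortas, a log2 fold change of -0.23 (SE 0.06, limma unadjusted p = 0.0063, limma adjusted p = 0.248). DESeq2 gave Psmd13 an adjusted p of 0.0187, and over the 22 alternatives its adjusted p ran from 0.0187 to 0.629. Psmd3, a structural subunit of the lid, read 2877, 2785, 3073 and 2860 in Ntn1-/- libraries and 3156, 3265, 3292 and 3891 in WT libraries. Here too the groups were apart, at a log2 fold change of -0.23 (SE 0.08, limma adjusted p = 0.263). The third gene, Psmd6, was apart with a smaller estimate of -0.14. Psmd8, Psmd11, Psmd12 and Psmd7 had overlapping groups, with levels of 87.1% to 92.6% of WT. Psmd14, the deubiquitinase that frees ubiquitin from the substrate, had a log2 fold change of -0.02 (SE 0.09), with a 95% interval of -0.22 to 0.18 that holds the estimates of the other lid genes except Psmd3 and Psmd13.

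All 7 assembly chaperones, which help to build the particles and then leave, had a lower estimate (52.4% of all genes). Of these, 3 had an unadjusted p under 0.05 (7.25% of all genes in that direction). Psmg4 had -0.36 (SE 0.14, limma adjusted p = 0.280), though its groups overlapped by less than 1 normalized read. Psmg3 read 236, 293, 297 and 240 normalized reads in Ntn1-/- replicates A to D and 319, 313, 328 and 381 in WT replicates A to D. Its groups did not overlap, and its log2 fold change was -0.33 (SE 0.12, limma adjusted p = 0.256), which is 79.5% of the WT level. With a length and GC offset, Psmg4 stood at -0.07 and Psmg3 at -0.05. Psmg1 and Psmg2, which act as a pair on the α ring, had -0.18 and -0.08 with overlapping groups. Psmd9, a chaperone of the ATPase base, read 597, 620, 694 and 600 in Ntn1-/- libraries and 715, 729, 783 and 715 in WT libraries. Its log2 fold change was -0.23 (SE 0.08, limma adjusted p = 0.253), with the groups apart. Psmd5 and Psmd10, other chaperones of the base, had -0.14 and -0.04.

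Of the 5 genes for activators and the inhibitor, which bind the ends of the core, 4 had a lower and 1 a higher estimate. An unadjusted p under 0.05 was seen for 0 of the 5. Over all genes 7.25% were lower and 8.37% higher at that p, so that 0 of 5 is near these shares. Psme1, which forms the interferon-inducible activator together with Psme2, read 2251, 2227, 3112 and 2919 normalized reads in Ntn1-/- replicates A to D and 2588, 3153, 3278 and 3218 in WT replicates A to D. The Ntn1-/- libraries split into a low and a high pair, and the log2 fold change was -0.23 (SE 0.13, limma adjusted p = 0.432). Psme2 read 2338, 2178, 3009 and 2799 in Ntn1-/- libraries and 2423, 2951, 2958 and 3348 in WT libraries. It showed the same pairs, at -0.18 (SE 0.13, limma adjusted p = 0.529). Psme3, which forms a nuclear activator of its own, read 1935, 1667, 1996 and 1923 in Ntn1-/- libraries and 2008, 1999, 2252 and 2198 in WT libraries. A narrow gap separated the groups, and its log2 fold change was -0.17 (SE 0.08, limma adjusted p = 0.339). The large activator Psme4 read 1906, 1857, 1657 and 1811 in Ntn1-/- libraries and 1842, 1829, 1809 and 1766 in WT libraries. The groups overlapped, and its estimate rounded to 0.00, with a 95% interval of -0.15 to 0.14. Psmf1, an inhibitor of the core, read 853, 843, 829 and 758 in Ntn1-/- libraries and 820, 796, 806 and 850 in WT libraries. Its log2 fold change of 0.00 had a 95% interval of -0.15 to 0.15. Psmc3ip, which is no subunit, had -0.16 (SE 0.15) at 53.8 to 76.6 normalized reads per library.

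Proteasome genes are short, and the estimates depended on how transcript length was treated. Their median exon length was 2180 bases, beside 3648 for all genes tested. With an offset fitted in each library to exon length and GC content, the median log2 fold change of the 47 genes went from -0.18 to -0.10, beside -0.02 for all genes, and 37 rather than 45 estimates were lower, where 55.2% of all genes were. The 21 genes under 2000 bases went from a median of -0.19, with all 21 lower, to -0.01, with 11 lower. For the 26 genes of 2000 bases or more the median went from -0.14, with 24 lower, to -0.15, with all 26 lower. The β ring moved from -0.20 to -0.01 and the ATPase ring from -0.19 to -0.05, while the α ring went from -0.13 to -0.12 and the lid from -0.15 to -0.12. The core assembly chaperones (Psmg genes) went from -0.26 to -0.04, the chaperones of the base from -0.14 to -0.20, and the activators with the inhibitor from -0.17 to -0.14. The most negative estimates with the offset were those of Psmd11, at -0.35, and Psmc2, at -0.33. With the offset, 12 genes had a lower estimate at an unadjusted p under 0.05, where 5.93% of all genes did, and 5 of them were among the 16 without it: Psma7, Psmc2, Psmd3, Psmd9 and Psmd13. Psmb5, at 922 bases, went from -0.28 to -0.01, and Psme4, at 8382 bases, from 0.00 to -0.24. Which of the estimates is nearer to the truth was not tested.

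**Figure D5:**
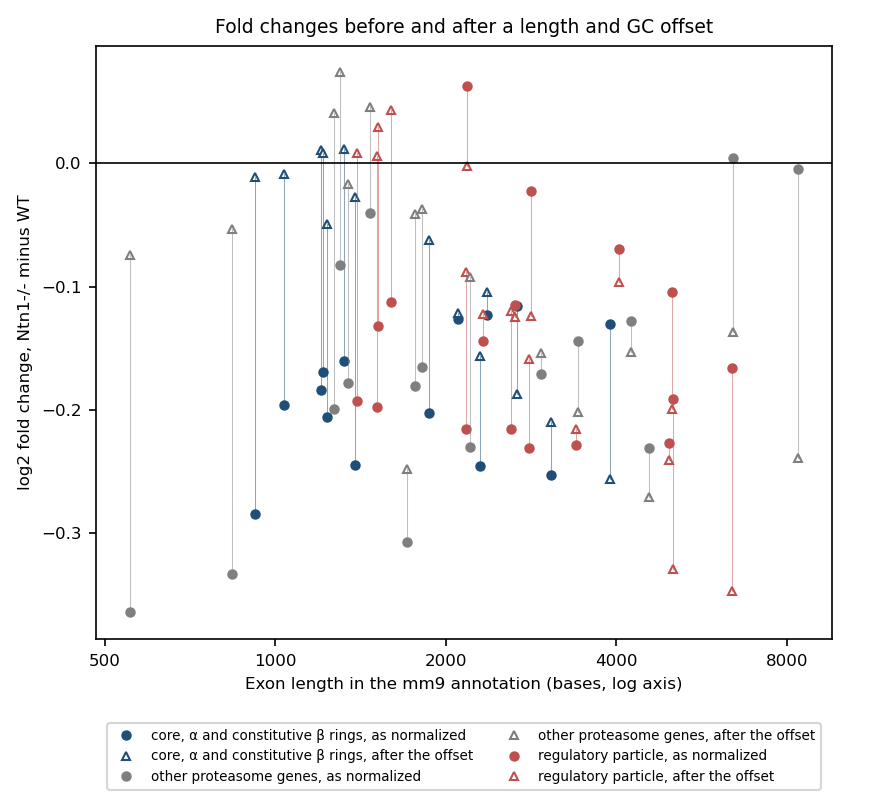
The log2 fold change (y axis, Ntn1-/- minus WT) of each of the 47 genes against its exon length in bases (x axis, log scale), as normalized by the authors (filled circles) and after a length and GC offset (open triangles), a thin line joining the 2 values of a gene. Genes shorter than 2000 bases move up to around 0, apart from Psma8 (-0.25 after the offset), and the longest move down.

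Genes that supply or steer the proteasome were taken from lists. The 16 proteasome-associated factors include the inducible core genes Psmb8, at -0.27 (SE 0.30), and Psmb9, at -0.18 (SE 0.30), both with overlapping groups. With these 2 counted, 9 of the 16 had a lower and 7 a higher estimate, with a median of -0.03. Of all genes tested, 52.4% had a lower estimate. At an unadjusted p under 0.05 were 3 in each direction, beside 7.25% of all genes lower and 8.37% higher. Adrm1, a ubiquitin receptor of the base, read 2190, 2239, 2426 and 2270 normalized reads in Ntn1-/- replicates A to D and 2533, 2654, 2917 and 2820 in WT replicates A to D. It was apart, at a log2 fold change of -0.26 (SE 0.07, limma adjusted p = 0.248, DESeq2 adjusted p = 0.0226). Shfm1, a small lid subunit that the symbol rule leaves out, had -0.19, and Pomp, which starts β ring assembly, had -0.20, both with overlapping groups. Ngly1, a deglycosylase that activates the transcription factor Nfe2l1, read 922, 883, 901 and 928 in Ntn1-/- libraries and 815, 749, 802 and 754 in WT libraries. Its groups were apart in the other direction, at 0.22 (SE 0.06, limma adjusted p = 0.248, DESeq2 adjusted p = 0.0272). Ddi2, the protease that cleaves Nfe2l1, had 0.36, and Zfand5, an activator of the proteasome, 0.22, both with overlapping groups. Nfe2l1 itself, the main activator of proteasome gene transcription, and its relative Nfe2l2 had log2 fold changes of -0.04 (SE 0.08) and 0.03 (SE 0.08). After the length and GC offset Adrm1 stood at -0.25, Ngly1 at 0.04 and Ddi2 at 0.18. The sign turned for Pomp (0.02), Shfm1 (0.02), Zfand5 (-0.02) and Nfe2l2 (-0.05). It also turned for Usp14 (from 0.06 to -0.15) and AI314180 (from 0.07 to -0.20).

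Upstream of the proteasome, 19 of 24 genes of ubiquitin supply and delivery had a lower estimate, with a median of -0.09, and 4 had one at an unadjusted p under 0.05 against 0 higher. Over all genes 52.4% had a lower estimate, and at that p 7.25% were lower and 8.37% higher, shares that also stand beside the next 2 lists. Ubb, a polyubiquitin gene, read 2498, 2472, 2477 and 2397 normalized reads in Ntn1-/- replicates A to D and 2866, 2915, 2719 and 3004 in WT replicates A to D. This was a narrow spread with the groups apart, at -0.22 (SE 0.06, limma adjusted p = 0.248, DESeq2 adjusted p = 0.0043). With the length and GC offset the estimate of Ubb was -0.03. Rps27a, which encodes ubiquitin fused to a ribosomal protein, had -0.23, the conjugating enzyme Ube2k had -0.20, and the ligase Stub1 had -0.20. All 3 were apart too, and with the offset they stood at -0.16, -0.38 and -0.03. Of 20 genes of interferon gamma response and class I antigen processing, 10 were lower and 10 higher, with a median of -0.06. Erap1, which trims peptides for class I molecules, at 0.30 and the interferon-induced Gbp4 at 0.48 were the only 2 with an unadjusted p under 0.05. With the offset Erap1 stood at 0.15 (limma unadjusted p = 0.21) and Gbp4 at 0.35 (limma unadjusted p = 0.091). Of 11 other targets of Nfe2l2, 8 were lower, and 6 with the offset. Sqstm1, a receptor for ubiquitinated cargo in autophagy, had -0.18 (limma adjusted p = 0.297, DESeq2 adjusted p = 0.00985), and Gclc, an enzyme of glutathione synthesis, had 0.24 (limma adjusted p = 0.258, DESeq2 adjusted p = 0.12), each with an unadjusted p under 0.05 in limma.

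Promoters were read for the motif of Nfe2l1 and Nfe2l2 (TGANNNNGC) and for the CCAAT box bound by NF-Y, on both strands, in the 250 bases before each start in the RefSeq table of GRCm38.p6. Of the 47 genes 39 matched, with 42 windows. TGANNNNGC was in 17 of the 42 windows (40.5%), and in 35.2% of the 32851 windows of all genes. CCAAT was in 14 of 42 (33.3%), and in 33.8% of all windows. Among genes with a lower estimate at an unadjusted p under 0.05 the motifs were in 5 and 4 of 14 windows, and among the other proteasome genes in 12 and 10 of 28. These shares lie near those of all promoters. A match describes the letters only. The windows of the 3 genes with the smallest p are shown because their log2 fold changes were below -0.2 both with and without the length and GC offset, and that of Psme4 because its estimate was near 0 without the offset. They were chosen after their values were seen, are given 5′ to 3′ on the strand of the gene, and have the motif in capitals.
Psmd13 (GRCm38.p6, chr7:140882144-140882393, plus strand): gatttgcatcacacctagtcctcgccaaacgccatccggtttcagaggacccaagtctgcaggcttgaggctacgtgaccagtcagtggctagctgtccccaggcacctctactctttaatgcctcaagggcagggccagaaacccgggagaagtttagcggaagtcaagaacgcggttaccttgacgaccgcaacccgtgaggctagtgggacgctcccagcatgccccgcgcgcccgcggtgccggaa
Psma7 (GRCm38.p6, chr2:180042465-180042714, minus strand): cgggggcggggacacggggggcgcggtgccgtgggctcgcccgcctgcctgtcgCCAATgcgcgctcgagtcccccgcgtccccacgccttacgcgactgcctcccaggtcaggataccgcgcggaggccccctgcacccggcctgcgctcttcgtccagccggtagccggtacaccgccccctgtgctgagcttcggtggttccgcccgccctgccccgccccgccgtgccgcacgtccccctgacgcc
Psmd9 (GRCm38.p6, chr5:123227940-123228189, plus strand): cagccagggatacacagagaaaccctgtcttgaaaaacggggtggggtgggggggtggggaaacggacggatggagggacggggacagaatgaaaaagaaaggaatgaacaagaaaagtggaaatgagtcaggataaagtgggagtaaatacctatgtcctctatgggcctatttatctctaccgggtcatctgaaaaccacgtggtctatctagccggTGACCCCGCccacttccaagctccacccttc
Psme4 (GRCm38.p6, chr11:30771525-30771774, plus strand): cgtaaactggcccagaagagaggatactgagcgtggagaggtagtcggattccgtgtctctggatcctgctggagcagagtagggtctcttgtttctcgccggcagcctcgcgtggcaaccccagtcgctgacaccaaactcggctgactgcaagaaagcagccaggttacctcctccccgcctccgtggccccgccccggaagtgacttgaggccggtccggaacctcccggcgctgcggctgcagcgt
Psma7 had a CCAAT box, which lay 196 bases before its start, and Psmd9 had TGANNNNGC 31 bases before its start. Neither motif was in the windows of Psmd13 and Psme4.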

How the data were processed

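Single-end reads of 50 nucleotides were aligned by the authors with TopHat 2.0.9 to mm9, at up to 2 mismatches, and were counted per gene with featureCounts, whose version, annotation and strand setting are not given in the sources used here. Reads that overlapping genes or pseudogenes share therefore cannot be told apart. The deposited values are a signal, the read count divided by the DESeq2 size factor of the library, as computed by the authors. The authors' deposited fold changes, p-values and pathway table were not used. Each library was divided by its smallest step, and 100.0% of 187360 values came out as whole reads (tolerance 0.001). For Ntn1-/- replicate C the step, 0.996, is so near 1 that an automatic test for whole reads did not accept this library. Its reads were recovered in the same way and enter the alternatives on reads; the main test uses the deposited values of all 8 libraries.

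limma 3.58.1 (eBayes with trend, R 4.3.3) was fitted to log2(value + 1) of the 14931 genes whose mean was 10 or more, with Benjamini-Hochberg adjustment over all of them. Of 23420 genes, 3906 had no read. Alternatives were edgeR 4.0.16, DESeq2 1.42.0 and limma-voom on recovered reads, other pseudocounts (0.5 and 5), no filter, quality weights, the replicate letter as a block, each library left out, and a length and GC offset (splines, over 14142 genes, 94.7%, with an mm9 annotation). Leaving out Ntn1-/- replicates B and C together, and the offset for the ratios, were added after seeing the data. Ratios and Ntn1 were tested by exact permutation (scipy 1.17.1). Counting error was 1.46% to 6.91% of the level for 44 of the genes, and 12.3%, 20.4% and 22.1% for Psmc3ip, Psma8 and Psmb11. The WT spread of Psmb11 (SD of 10.0% of the mean) lay below its counting error. So did the spread of Psmc3ip in both groups (11.6% in Ntn1-/- and 8.71% in WT). Of the 44 genes, 4 also had a group whose spread lay below it. Members, lists and tests were chosen with earlier results of these data known. All members are named. Values per library are given for catalytic subunits, activators, the inhibitor, the 6 other lower genes with the smallest p and the 1 other higher gene. Up to 4 genes of smallest p are named per further list, and more of the proteasome-associated factors. Values per library of Adrm1, Ngly1 and Ubb, and the promoters shown, were added after their values were seen. Markers and lists gave no test of their own.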

Additional observations from a re-analysis of the deposited data

Results flagged for a closer look

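Within a group of 4 libraries, 1 library stood apart from the other 3 for 6 of 100 groups of values examined (by the gap to the nearest of the others over the whole range), where chance flags about 1 in 20, or 5. In 5 of these 6 it was WT replicate D that was high. Psmb5 read 2956 normalized reads there and 2301 to 2315 in the other WT libraries. Psmd4 read 3759 there and 3178 to 3195 in the others, Psmb3 3869 and 3127 to 3198, Psmc5 3519 and 3165 to 3197, and Psmd2 4902 and 4688 to 4721. In the other case WT replicate A was low for Psmb10, at 906 normalized reads beside 1223 to 1277.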

How the results depend on the processing

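Over 22 alternatives no setting but DESeq2 called any gene at an adjusted p under 0.05 (544 genes and 1 proteasome gene, Psmd13, with a log2 fold change of -0.23), and 0 proteasome genes were higher at an unadjusted p under 0.05 under any of them. With library sizes only, 1 proteasome gene was lower at that p (Psmd13). There 4 had groups apart (2 in each direction), beside 11.3% of all genes in either direction. The median log2 fold change was -0.10, beside 0.07 for all genes. All genes split there into 366 lower and 2213 higher at that p, against 1083 and 1250 with the size factors. The length and GC offset gave a median of -0.10, alone and with the replicate block. At an unadjusted p under 0.05, 12 and 10 genes were lower, beside 5.93% and 4.12% of all genes. Quality weights gave 13 at that p (7.74% of all genes), of which 12 were among the 16. Letters did not pair the libraries (correlations of deviations -0.01, -0.30, 0.15 and -0.26 for A to D), and the replicate block left 7 genes lower in limma (4.76% of all genes) and 7 in edgeR (4.66%). The paired exact permutation p of the 3 ratios was 1 for Psmb8/Psmb5 and Psmb9/Psmb6, and 0.75 for Psmb10/Psmb7. Without 1 library in turn, 5 to 21 genes were lower at an unadjusted p under 0.05, given here with the share of all genes. Without Ntn1-/- replicates A to D in turn, they were 9 (5.26%), 10 (6.4%), 21 (7.13%) and 5 (6.01%). Without WT replicates A to D, they were 20 (6.17%), 14 (6.36%), 10 (4.37%) and 5 (4.6%). Genes apart numbered 11 to 23, and the median ran from -0.22 to -0.14. The most were apart without Ntn1-/- replicate C (23) and without WT replicate A (21). Of all genes 17.7% and 15.7% were apart there in either direction, against 10.5% with all 8 libraries. Fewer samples were tested in each of these fits. Without Ntn1-/- replicates B and C, 15 were lower at that p (6.71% of all genes) and 27 apart, beside 28.3% of all genes apart.

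Differences of the log2 ratios ran, without 1 library in turn, from -0.21 to 0.24 for Psmb8/Psmb5, from -0.21 to 0.28 for Psmb9/Psmb6 and from -0.17 to 0.0609 for Psmb10/Psmb7. The length and GC offset reversed Psmb8/Psmb5 (-0.18) and Psmb10/Psmb7 (0.0322). Of 47 genes 30 kept the sign of their log2 fold change throughout. The length and GC offset, with or without the replicate block, reversed Psma5 (0.0115), Psmb2 (0.0106), Psmb7 (0.0083), Psmb10 (0.0406), Psmc1 (0.0291), Psmc5 (0.0085), Psmc6 (-0.0024), Psmd7 (0.0434), Psmd8 (0.0059), Psmd10 (0.0452), Psmf1 (-0.14) and Psmg2 (0.0735). Library sizes only reversed Psmb11 (0.0044), Psmd2 (0.0048), Psmd10 (0.0325), Psmd14 (0.0539) and Psme4 (0.0694), and quality weights reversed Psmd10 (0.0309) and Psmd14 (0.0025). Leaving out Ntn1-/- replicates B and C reversed Psma8 (0.19), Psmd14 (0.0345), Psme4 (0.0364) and Psmf1 (-0.0233). Without 1 library in turn, Psmb11 ran from -0.28 to 0.13, Psmd14 from -0.0605 to 0.0471, Psme4 from -0.0309 to 0.0362 and Psmf1 from -0.0145 to 0.0423. The cause was not tested.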
